A study of Bos taurus and Bubalus bubalis with 9 samples.

Results

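The genes described here encode contractile and Z-disc proteins of slow muscle fibres. They are MYL2, TNNI1, MYOZ2, TNNT1, TNNC1 and MYL3, 6 genes chosen by name. Of these, 4 had a transcript that a table used here pairs with a name, which gave 5 transcripts among the 19917 listed for buffalo (MYL2, TNNI1 and MYOZ2 with 1 each, TNNT1 with 2). TNNC1 and MYL3 were paired with no transcript and are not analysed here at the mRNA level. MYOZ2 and TNNT1 also hosted circRNAs, with 4 back-splice junctions in all among 10701 junctions in the buffalo table and 18535 in the cattle table.

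The libraries came from the longissimus dorsi muscle of 3 Xinyang buffaloes (Bubalus bubalis, labelled low intramuscular fat), and from the same muscle and the back subcutaneous fat of 3 Nanyang cattle (Bos taurus, labelled high intramuscular fat). All animals were castrated, fattened and slaughtered at 30 months of age. Buffalo mRNA levels, given per transcript and library, and circRNA values of both species were analysed, with 3 libraries in each group and 9 in all. The reads of both species had been aligned to the cattle genome UMD3.1, and species, farm and alignment to a cattle reference cannot be told apart in any value set side by side between buffalo and cattle.

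Skeletal muscle is built of slow fibres, which resist fatigue and rely on oxidative metabolism, and of fast fibres, which contract quickly and depend more on glycolysis. Each kind has its own isoforms of the same contractile parts. The myosin motor carries a regulatory and an essential light chain, which in slow fibres are MYL2 and MYL3. Calcium acts through the troponin complex on the thin filament, where troponin C (TNNC1) binds calcium, troponin I (TNNI1) inhibits contraction and troponin T (TNNT1) anchors the complex to tropomyosin. MYOZ2 is a protein of the Z-disc, the boundary of the sarcomere, where it binds alpha-actinin and calcineurin. Several of these genes are also used by the heart. In the RefSeq annotation of the cattle genome, the cardiac troponin I gene TNNI3 lies next to TNNT1. Among protein-coding genes, MYOZ2 lies between USP53 and SYNPO2, and MYL2 between CCDC63 and CUX2.

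The muscle label was checked against marker genes. In buffalo muscle, the 5 transcripts of the genes described here had means of 251.9 FPKM or more (FPKM is a level scaled to transcript length and library size). The 12 transcripts of the other slow fibre genes had means from 3.76 to 3497 FPKM. The slow myosin heavy chain MYH7 had 4373, 3105 and 3015 FPKM in buffalo muscle 1 to 3. The 4 adipocyte genes with a named transcript (ADIPOQ, PLIN1, FABP4 and CIDEC; LEP had none) summed to 5.54, 18.1 and 15.7 FPKM, and the 3 liver genes (ALB, APOB and TF; FGA had none) to 0.354, 1.94 and 0.836 FPKM. The 4 smooth muscle genes MYH11, ACTA2, TAGLN and MYL9 summed to 177, 125 and 118 FPKM. None of the 5 cardiac genes on the list (NPPA, NPPB, TNNT2, TNNI3 and MYL7) had a named transcript. In bulk tissue, fewer fibres of a kind and less RNA per fibre cannot be told apart.

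First, the levels of the slow fibre transcripts in buffalo muscle were examined. MYL2 was the highest of them, followed by the higher TNNT1 transcript, TNNI1, the lower TNNT1 transcript and MYOZ2. No neighbours in this order overlapped over the 3 animals. The levels are scaled to transcript length. Buffalo reads were aligned to the cattle genome, and whether reads of each gene were recovered equally was not tested. This limits each rank and each ratio between genes below. No group of other samples with mRNA values was used, so the levels are given without a test. The median level over the 12618 transcripts with a mean of at least 1 FPKM was 8.73 FPKM.

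MYL2 (ENSBTAT00000024444, gene ENSBTAG00000018369), the regulatory light chain, had 5913, 6204 and 4776 FPKM in buffalo muscle 1 to 3. The mean was 5631 ± 754 FPKM (SD, n = 3), rank 17 of the 19917 listed transcripts. By FPKM, buffalo muscle 3 was the lowest, and the other animals lay close together. With each library rescaled to the same summed FPKM, the values were 4982, 6202 and 4817. Buffalo muscle 3 was then still the lowest, but it lay close to buffalo muscle 1. The mean level was 645 times the median named above.

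Within the troponin complex, TNNI1 (ENSBTAT00000063025, gene ENSBTAG00000047231) had 1177, 1001 and 1016 FPKM, with a mean of 1065 ± 97.9 FPKM (SD, n = 3) and rank 88. Here buffalo muscle 1 was the highest by FPKM. With each library rescaled to the same summed FPKM, the values were 992, 1000 and 1025, and buffalo muscle 1 was the lowest. The transcript next below TNNI1 in mean level was that of CSRP3, a muscle LIM protein of the Z-disc, with 1051 FPKM.

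TNNT1 (gene ENSBTAG00000006419) had 2 named transcripts. The higher one, ENSBTAT00000064903, had 1954, 1973 and 1784 FPKM, a mean of 1904 ± 104 FPKM (SD, n = 3) and rank 50. In mean level it lay between transcripts of LDHA, lactate dehydrogenase A (1922 FPKM), and CRYAB, a small heat shock protein (1891 FPKM). The lower one, ENSBTAT00000008420, had 813, 877 and 442 FPKM, a mean of 710.4 ± 235 FPKM (SD, n = 3) and rank 132. By FPKM, the higher transcript differed little between the animals, whereas the lower one was clearly lowest in buffalo muscle 3. The sum of both was 2767, 2850 and 2226 FPKM, and the higher transcript made up 70.6%, 69.2% and 80.2% of it. The ratio of the higher to the lower transcript was 2.40, 2.25 and 4.04. The division of reads between overlapping transcripts of 1 gene is an estimate of the authors' software, and its error is not given in the table.

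**Figure D1:**
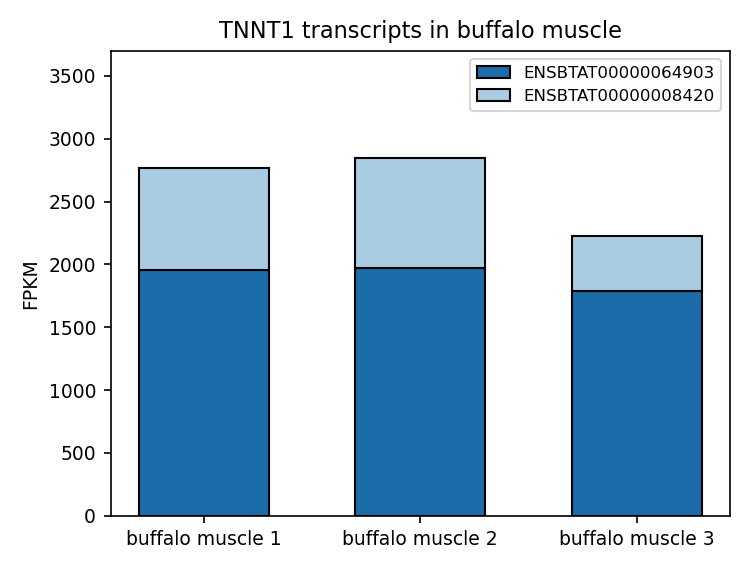
FPKM of the TNNT1 transcripts, stacked, in each of the 3 buffalo muscle libraries. The higher transcript (dark) stays between 1784 and 1973 FPKM, and the lower one (light) is at 442 FPKM in buffalo muscle 3 against 813 and 877 FPKM in the other animals.

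MYOZ2 (ENSBTAT00000003330, gene ENSBTAG00000002574) had 279, 268 and 209 FPKM, with a mean of 251.9 ± 38.0 FPKM (SD, n = 3) and rank 348. Buffalo muscle 3 was again the lowest. MYOZ2 was the lowest of the slow fibre transcripts, at 28.9 times the median of the transcripts with at least 1 FPKM.

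The slow fibre transcripts varied among the 3 animals by a coefficient of variation (SD as a percent of the mean) of 5.47% for the higher TNNT1 transcript, 9.19% for TNNI1, 13.4% for MYL2, 15.1% for MYOZ2 and 33.1% for the lower TNNT1 transcript. The median over the 810 transcripts with a mean of at least 100 FPKM was 11.5%. Of the 5 transcripts, 4 were lowest in buffalo muscle 3, beside 37.6% of the 12618 transcripts with a mean of at least 1 FPKM. The summed FPKM was higher in buffalo muscle 1 (1186999) than in 2 (1000417) and 3 (991636). The coefficients of variation above are of FPKM and do not allow for this. With each library rescaled to a sum of 1000000, the higher TNNT1 transcript (1646, 1972 and 1799) varied more than TNNI1 (992, 1000 and 1025). After rescaling each library to a sum of 1000000, MYL2, MYOZ2 and the lower TNNT1 transcript, 3 of the 5, were lowest in buffalo muscle 3, beside 22.6% of all. The median of the 5 differences, buffalo muscle 3 minus the mean of the other two on the log2(FPKM + 1) scale, was -0.34, beside -0.03 over all transcripts with at least 1 FPKM. After rescaling, these medians were -0.21 and 0.08.

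The other slow fibre genes on the list showed a wide range of levels. Of the 12 genes, 11 had a named transcript (TPM3 had none), and the means of their 12 transcripts ran from 3.76 to 3497 FPKM with a median of 72.5. The highest were MYH7, with a mean of 3497 ± 759 FPKM (SD, n = 3), and MYBPC1, slow myosin binding protein C, with 3182 ± 187 FPKM. ATP2A2, the calcium pump of the slow fibre sarcoplasmic reticulum, had 934 ± 101 FPKM. MYL2 was above each of them in each animal. The lowest was a transcript of PPARGC1A, a coactivator of oxidative genes, whose other transcript had 105, 29.3 and 26.3 FPKM in buffalo muscle 1 to 3. Of these 12 transcripts, 9 were lowest in buffalo muscle 3, and 7 after rescaling, beside 37.6% and 22.6% of all with at least 1 FPKM.

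Each slow fibre gene was then set against the fast fibre isoform of the same protein within the same library. By FPKM of the named transcripts, MYL2 and TNNI1 were below MYLPF and TNNI2 in each buffalo muscle library. MYOZ2 differed from MYOZ3 by less than the spread, and for troponin T the order depended on which transcripts were counted. Only RNA was measured, and transcripts without a name were not counted. The pairs were MYL2 with MYLPF, TNNI1 with TNNI2, TNNT1 with TNNT3 and MYOZ2 with MYOZ3. MYOZ1, the fast counterpart first chosen for MYOZ2, had no named transcript, so MYOZ3 stood in and MYOZ1 was not counted. TNNC2 had no named transcript either, so no pair was formed for TNNC1, and MYL3 lacked a named transcript beside MYL1. A difference within 3 animals cannot reach an exact two-sided sign-flip p below 0.25, so the pairs are described with their spread and no test.

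**Figure D2:**
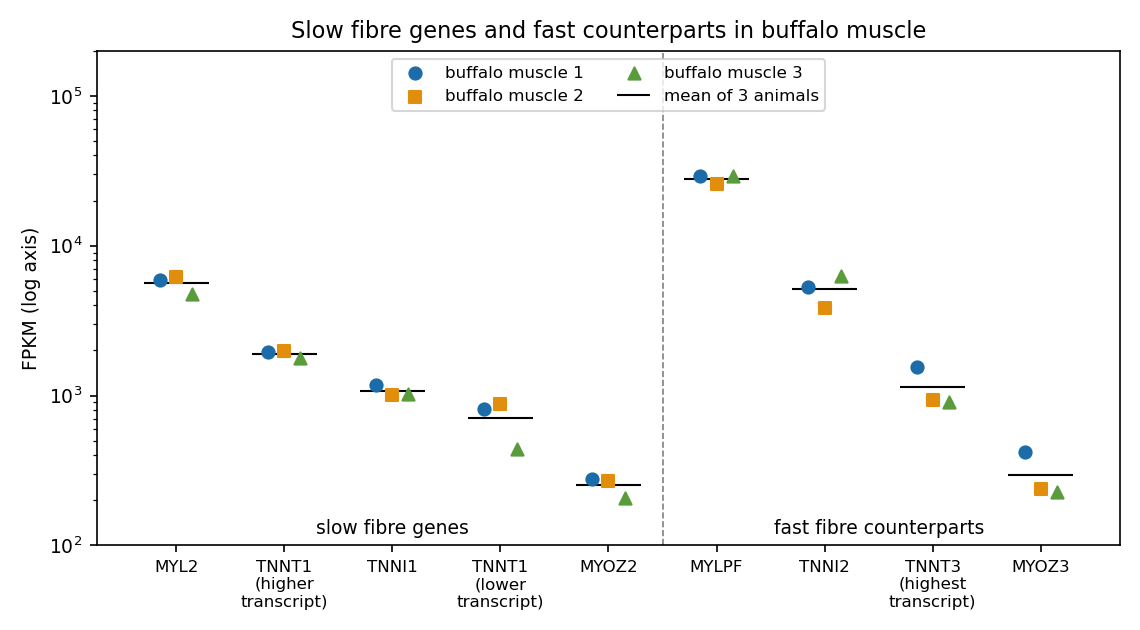
FPKM on a log axis of the slow fibre transcripts and of the transcript of each fast counterpart with the highest mean. There is 1 point per buffalo muscle library and a line at the mean of 3 animals. The slow fibre transcripts step down from MYL2 (5631 FPKM) to MYOZ2 (251.9 FPKM) without overlap between neighbours, and MYLPF lies above all of them.

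MYLPF, the fast regulatory light chain, had 29288, 25610 and 29072 FPKM. It exceeded MYL2 by 4.95, 4.13 and 6.09 times in buffalo muscle 1 to 3. The difference of log2(FPKM + 1), slow minus fast, was -2.32 ± 0.28 (SD, n = 3), far larger than its spread. MYL2 made up 16.8 ± 2.70% (SD, n = 3) of the pair.

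TNNI2, fast troponin I, had 5326, 3818 and 6265 FPKM and exceeded TNNI1 by 4.52, 3.82 and 6.17 times. The log2 difference was -2.24 ± 0.35 (SD, n = 3), and TNNI1 made up 17.6 ± 3.43% of the pair. In both pairs the slow share was highest in buffalo muscle 2 and lowest in buffalo muscle 3, and it stayed below 21% in each animal (19.5% at most for MYL2 and 20.8% for TNNI1).

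For troponin T, the outcome depended on which transcripts were counted. The TNNT3 transcript with the highest mean (ENSBTAT00000029890) had 1553, 939 and 911 FPKM. The higher TNNT1 transcript exceeded it in each animal, by 1.26, 2.10 and 1.96 times, a log2 difference of 0.79 ± 0.40 (SD, n = 3). In buffalo muscle 3 another TNNT3 transcript, ENSBTAT00000008422, was higher, at 1404 FPKM, and was also below the higher TNNT1 transcript. TNNT3 had 5 named transcripts, and 1 of them (ENSBTAT00000064506) was at 520 FPKM in buffalo muscle 1 and below 0.03 FPKM in the others. With the named transcripts of each gene summed, the difference was -0.10 ± 0.43, less than its spread. TNNT1 was then 45.5%, 56.7% and 42.7% of the pair. TNNT1 was thus above TNNT3 in all 3 animals by the transcripts with the highest mean and only in buffalo muscle 2 by the sum.

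For the Z-disc proteins, MYOZ3 had 420.1, 237 and 226 FPKM. MYOZ2 was below it in buffalo muscle 1 and 3 and above it in buffalo muscle 2, with a log2 difference of -0.18 ± 0.39 (SD, n = 3), less than its spread. Without buffalo muscle 1 the difference was 0.031. MYOZ2 made up 39.9%, 53.1% and 48.0% of the pair. MYOZ1 is not part of this pair, so these shares do not give the balance of slow and fast Z-disc genes.

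**Figure D3:**
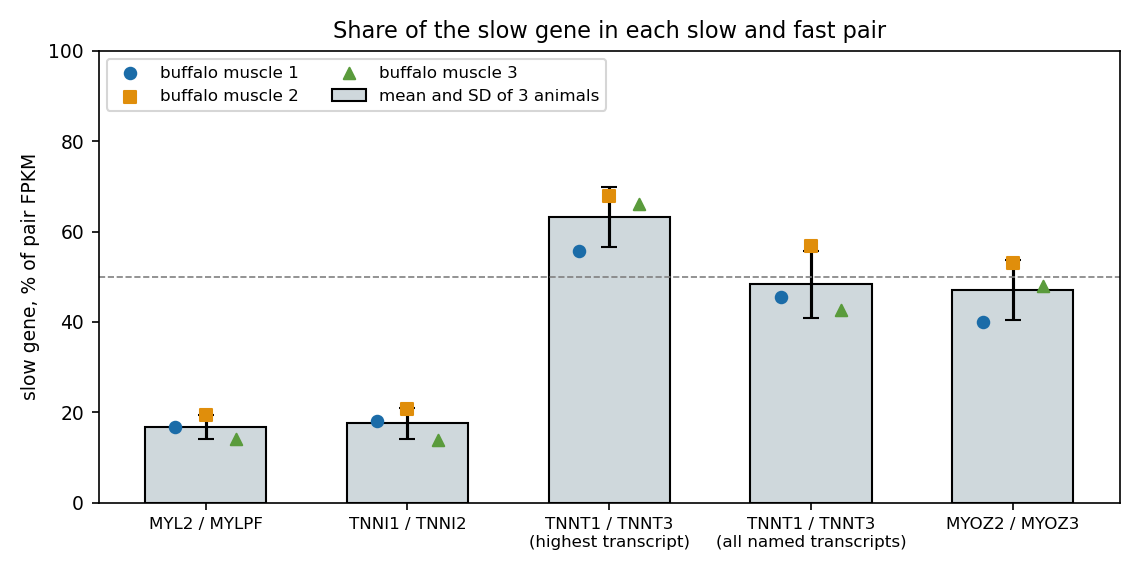
FPKM of the slow fibre gene as a percent of the summed FPKM of the slow and fast gene, with 1 point per buffalo muscle library and bars for the mean and SD of 3 animals. MYL2 and TNNI1 stay at or below 20.8%, and the shares of TNNT1 and MYOZ2 lie between 39.9% and 67.8%. The MYOZ2 share is against MYOZ3 alone, since MYOZ1 had no named transcript. The share of 67.8% is that of TNNT1 by the transcripts with the highest mean. With the named transcripts of each gene summed, TNNT1 makes up 45.5%, 56.7% and 42.7%.

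The fast fibre list as a whole gave the setting for these pairs. Of its 16 genes, 11 had a named transcript, and the means of their 17 transcripts ran from 0 to 27990 FPKM with a median of 1172. The median over the 5 slow fibre transcripts described here was 1065 FPKM. The transcript at 0 in each library was that of MYH1 (ENSBTAT00000009327), a fast myosin heavy chain of a gene family with closely similar members. A back-splice junction labelled MYH1 had 2 reads in buffalo muscle 3, so the level of MYH1 is uncertain. Whether these reads come from MYH1 alone was not tested. The reason for the 0 was not tested. Among the fast transcripts, 5 of 17 were lowest in buffalo muscle 3, and 4 after rescaling. Over all transcripts with a mean of at least 1 FPKM, these shares were 37.6% and 22.6%. The MYH1 transcript, at 0 throughout, could not be lowest.

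Next, circRNAs of the slow fibre genes were examined. A circRNA is a ring of RNA formed when a splice donor joins an acceptor upstream of it, and reads across that back-splice junction identify it. Values were RPM, junction reads per 1000000 reads of the library, and the number of reads behind each value was recovered from the values. MYL2, TNNI1, TNNC1 and MYL3 hosted no junction in either table, although MYL2 was the highest slow fibre mRNA in buffalo muscle. The library totals of junction reads were 4472 to 6122 in buffalo muscle, 15440 to 27141 in cattle muscle and 12042 to 21053 in cattle adipose tissue. With 0 reads, 3 reads is the limit that such a count allows, which is at most 0.0840 RPM in the muscle libraries (cattle muscle 3, with the fewest reads in all). These limits and the intervals below cover counting error only.

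The MYOZ2 circRNA was the only one of the 6 genes found in both species. Its junction joins position 7273241 to position 7259434 on the minus strand of chromosome 6 of UMD3.1 (chr6:7259434-7273241), spans 13808 bases and is annotated as exonic. In cattle muscle it had 10, 29 and 37 reads, or 0.265, 0.686 and 1.04 RPM. In cattle adipose tissue it had 0 reads in each of the 3 libraries, which allows up to 0.0814, 0.0807 and 0.0772 RPM by the limit of 3 reads. The exact 95% Poisson intervals, which the plot of this circRNA shows, end higher for the same libraries, at 0.1001, 0.0992 and 0.0950 RPM. All cattle muscle values were above both limits of each adipose library. Over the 3 libraries of each tissue together, with a limit of 3 reads for the adipose group, the level in muscle was at least 24.7-fold higher. The junction ranked 83 by mean RPM among the 11998 junctions detected in cattle muscle.

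Across all junctions, the comparison of cattle muscle with cattle adipose tissue by limma on log2(RPM + 1) did not call this junction. The difference was 0.71 with an SE of 0.16, the adjusted p of limma was 0.072, and the junction was higher in 3 of 3 muscle libraries. The same test called 59 of 1917 junctions higher in muscle (3.08%) and 3.23% in either direction, and 15.3% of the tested junctions had all 3 muscle values above all 3 adipose values. On the recovered reads, the quasi-likelihood test of edgeR called it with an adjusted p of 7.3e-09, in a test that called 7.15% of junctions higher in muscle and 8.5% in either direction, and DESeq2 called it with an adjusted p of 2.0e-05. Both tissues came from the same 3 cattle by the labels, but which libraries share an animal is not stated, so the fit has no block. With the replicate number as a block, limma called the junction (adjusted p = 0.032). With a pseudocount of 0.1 in place of 1, the adjusted p of limma was 0.0017, and with at least 5 reads per library in place of 2 it was 0.026. Other settings of limma did not call the junction: the adjusted p was 0.33 with no filter and 0.120 to 0.165 without 1 adipose library. The junction passed the filter on low values through the muscle libraries alone, so a difference was built into its passing.

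A second MYOZ2 junction (chr6:7259434-7276492, 17059 bases, exon and intron) had 1 read, in cattle muscle 3. Summed over its junctions, MYOZ2 had 0.672 ± 0.400 RPM (SD, n = 3) in cattle muscle. The difference from adipose tissue was 0.71 on the log2(RPM + 1) scale (p = 0.1 by a two-sided exact permutation test, which 3 against 3 libraries cannot go below). Among 1829 host genes tested by limma, its adjusted p was 0.068, in a test that called 2.95% of hosts higher in muscle and 3.83% in either direction. By edgeR, which called 6.78% of hosts higher and 8.97% in either direction, the adjusted p was 6.9e-10. As a host too, MYOZ2 had 0 reads in adipose tissue and passed the filter through muscle alone, so a difference was built into its passing.

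The MYOZ2 circRNA was lowest in cattle muscle 1 and highest in cattle muscle 3. These are single libraries of separate animals, so the intervals set them against counting error only. The exact 95% Poisson interval was 0.127 to 0.487 RPM for cattle muscle 1 and 0.729 to 1.43 RPM for cattle muscle 3, with no overlap. Per 1000000 junction reads, the values were 648 (exact binomial interval 311 to 1191) in cattle muscle 1, 1068 (716 to 1534) in cattle muscle 2 and 1689 (1190 to 2328) in cattle muscle 3. On this scale the intervals of cattle muscle 1 and 3 just overlapped.

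In buffalo muscle the same junction had 2, 4 and 0 reads in animals 1 to 3, or 0.0304, 0.0628 and 0 RPM, and ranked 402 among 4737 junctions detected. The 3 cattle muscle values, 0.265 to 1.04 RPM, all lay above these. The RPM summed over all junctions was also lower in buffalo muscle, 74.5 to 96.1 against 408 to 642 in cattle muscle. Per 1000000 junction reads, buffalo muscle had 378 (exact 95% binomial interval 45.7 to 1364), 653 (178 to 1672) and 0 (0 to 825). The highest buffalo value then reached the lowest cattle value, 648. Both species came in separate tables, so these values are set side by side and were not tested against each other.

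**Figure D4:**
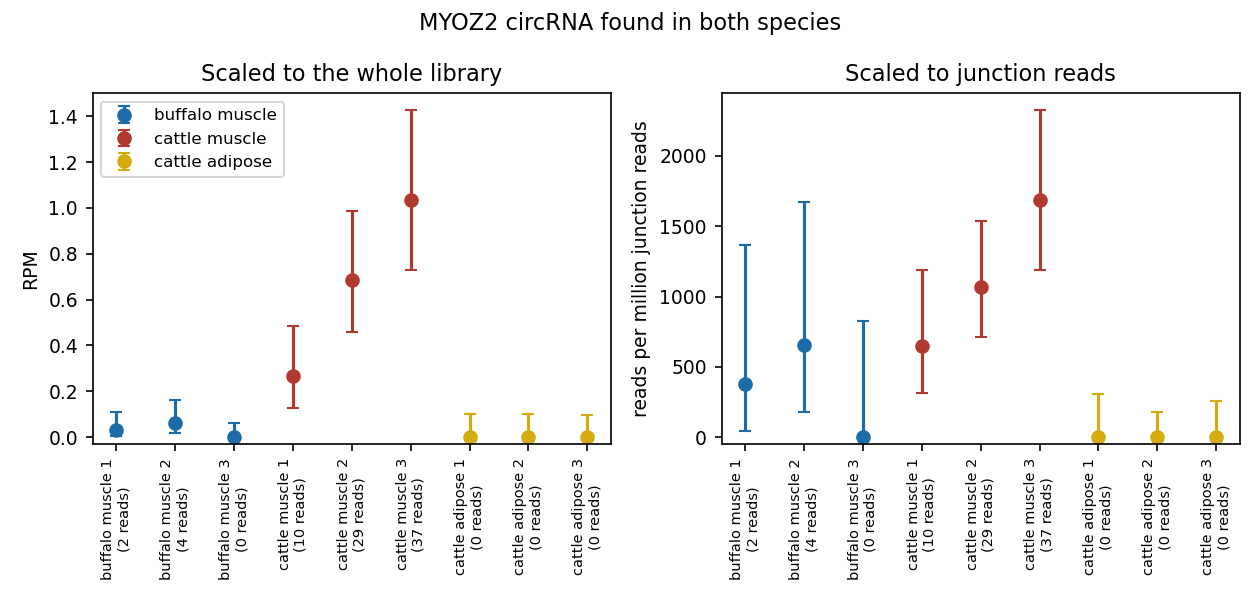
MYOZ2 circRNA in each of the 9 libraries, as RPM (left) and as reads per 1000000 junction reads (right), with exact 95% intervals for counting error and the reads below each library. The cattle muscle values lie between 0.265 and 1.04 RPM, the buffalo muscle values at or below 0.0628 RPM, and each cattle adipose library has 0 reads; scaled to junction reads, the highest buffalo value (653) reaches the lowest cattle muscle value (648).

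TNNT1 hosted 2 junctions, both exonic, on the plus strand of chromosome 18 and seen only in cattle muscle. The junction at chr18:62729702-62730536 (835 bases) had 5 reads in cattle muscle 1 (0.132 RPM) and 0 in cattle muscle 2 and 3. The junction at chr18:62730117-62732674 (2558 bases) had 1 read, in cattle muscle 2. Summed over both, the log2(RPM + 1) difference of cattle muscle from adipose tissue was 0.07 (exact two-sided permutation test, p = 0.4). It ranged from 0.017 (without cattle muscle 1) to 0.11 (without cattle muscle 3) with 1 library left out. The summed reads were 5, 1 and 0 in cattle muscle 1 to 3. With so few reads, this result does not show the lack of a difference. Neither junction passed the filter of at least 2 reads in at least 3 libraries.

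The other genes of the lists were compared as circRNA hosts in the same way. Of the 12 other slow fibre genes, 7 hosted a junction with a read in cattle and 3 were tested. By limma, ATP2A2 and MYBPC1 rose in muscle, with log2(RPM + 1) differences of 0.45 (adjusted p = 0.018) and 3.38 (adjusted p = 1.5e-05). PPARGC1A differed by 0.22 (adjusted p = 0.17). Of the 16 fast fibre genes, 7 hosted a junction and 3 were tested. MYL1, the fast essential light chain, rose by 2.71 (adjusted p = 8.1e-06), and ATP2A1 and TPM1 differed by 0.27 (adjusted p = 0.21) and 0.33 (adjusted p = 0.32). On this scale the added 1 shrinks differences between low values. By edgeR the log2 differences were 11.5 for MYBPC1, 10.8 for MYL1, 6.86 for ATP2A2 and 6.03 for ATP2A1. They were 2.38 for PPARGC1A and 2.01 for TPM1. Where adipose tissue had 0 reads, the size of the edgeR difference is uncertain. The background for these counts is the 2.95% of hosts called higher in muscle, and ATP2A2, MYBPC1, MYL1 and ATP2A1, with 0 adipose reads, passed the filter through muscle alone. ATP2A2 had 13, 12 and 17 reads in cattle muscle and 0 in each adipose library. Its call was lost without cattle adipose 1 or 3 (adjusted p of limma 0.080 in both fits), whereas MYBPC1 and MYL1 kept theirs without any 1 adipose library. Without any 1 muscle library, ATP2A2, MYBPC1 and MYL1 did not pass the filter and gave no value. With edgeR, ATP2A1 and TPM1 also passed (adjusted p = 0.0032 and 0.046), and PPARGC1A did not (adjusted p = 0.14). TPM1 was not called by DESeq2 (adjusted p = 0.15) or by limma with a pseudocount of 0.1 (adjusted p = 0.13), whereas ATP2A1 was (adjusted p = 0.014 and 0.026). MYBPC1 and MYL1 had far more junction reads in cattle muscle than MYOZ2, 293 to 412 for MYBPC1 and 184 to 267 for MYL1 against 10 to 38 for MYOZ2.

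Among the hosts whose summed values over the 6 cattle libraries were most like those of MYOZ2 were CPEB3 and ACACB, with Pearson's r of 0.994 and 0.989 among 1828 hosts compared. ACACB had 8, 14 and 18 reads in cattle muscle and 0, 1 and 0 in adipose tissue. The 6 points are 2 tissues of 3 animals, and 31 hosts had an r above 0.95, so this is a description of likeness only.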

How the data were processed

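Libraries made with the TruSeq RNA LT v2 kit, which selects polyadenylated RNA and does not mark strand, were sequenced by the authors. How this bears on circRNAs, which have no poly(A) tail, was not tested. Per the submitters' processing notes, reads were trimmed with Trim Galore, aligned to UMD3.1 with STAR and assembled with Cufflinks 2.2.1, and Cuffdiff gave the values. The mRNA table deposited by the authors holds FPKM per transcript on the linear scale, with no read counts, so the depth of a transcript is unknown. The circRNA tables deposited by the authors hold RPM per junction. The unit is not named in the file and was taken from the values, each a whole multiple of 1 step per library (100% within 0.01 reads), which gave the reads. The circRNA caller is not given in the sources used here. The 9 columns of buffalo adipose tissue, which match no sample used here, were not used, and the lncRNA table, which carries no gene names, was not used.

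Names came from the circRNA tables and from the identifiers and names, not the values, of the study's lists of transcripts that differed between the species (6795 of 19917 transcripts named, 34.1%). The members, lists and tests were chosen with earlier results of these data known. The genes named are the members, their fast counterparts, the other genes of the lists, the 3 hosts most like a member (1 of them is not reported here), and the transcripts next to a member in level, where named. Levels were tested in no group, since only 1 group with mRNA values was used. Cattle muscle and adipose circRNAs were compared with limma 3.58.1 on log2(RPM + 1) over junctions, and over sums per host gene, with at least 2 reads in at least 3 of 6 libraries, adjusted by Benjamini-Hochberg, called under 0.05. The scripts were tested on simulated data, where both limma and edgeR missed most of the changes put in and limma recovered fewer than edgeR, so the lack of a call does not show the lack of a difference. Alternative fits used edgeR 4.0.16 (TMM, quasi-likelihood) and DESeq2 1.42.0 on recovered reads, a pseudocount of 0.1, a filter of 5 reads or none, a block for replicate number, and leaving out single libraries. Exact tests used scipy 1.17.1. Each library is described by the labels as 1 of 3 animals per group.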

Additional observations from a re-analysis of the deposited data

How the results depend on the processing

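The MYL2 and TNNI1 pairs kept their direction with a pseudocount of 0.1 and with 1 animal left out. The fast gene was far higher in each animal, so these runs could not change the direction. Summing transcripts was no check for these pairs, since each gene had 1 named transcript. The difference between TNNT1 and TNNT3 changed sign to -0.10 with summed transcripts, and that of MYOZ2 and MYOZ3 ranged from -0.35 to 0.031 with 1 animal left out (0.031 without buffalo muscle 1). Summing both TNNT1 transcripts moved its mean log2(FPKM + 1) from 10.89 to 11.34. Among transcripts with a mean of at least 1 FPKM, the place from the top was 0.135% for MYL2, 0.396% for the higher TNNT1 transcript, 0.697% for TNNI1, 1.05% for the lower TNNT1 transcript and 2.76% for MYOZ2, because fewer transcripts were counted. The count of junctions called between cattle muscle and adipose tissue, 62, became 115 with DESeq2, 163 with edgeR, 36 with no filter, 123 with a pseudocount of 0.1, and 16 to 50 with 1 library left out (16 without cattle muscle 3). The count of hosts, 70, became 117, 164, 35 and 126 under the same 4 settings, and 24 to 45 with 1 library left out (24 without cattle adipose 1 or 3). Counts fell by over 1.5 times without any 1 of the libraries, except cattle adipose 2 for junctions (50). The cause was not tested.

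With the replicate number as a block, 86 junctions and 69 hosts were called, and the adjusted p of limma was 0.032 for the MYOZ2 junction and 0.055 for MYOZ2 as a host. Same-numbered muscle and adipose libraries correlated in their deviations from the group mean at r = 0.238, 0.169 and -0.016 over junctions. Differently numbered libraries gave r from -0.219 to 0.040. Deviations from a mean of 3 libraries depend on each other, so these values do not settle the pairing. The labels do not say whether a number marks 1 animal in both tissues, although both came from the same 3 cattle. Without 1 adipose library the adjusted p of the MYOZ2 junction was 0.120 to 0.165, and without 1 muscle library it did not pass the filter and gave no value. With no filter it was 0.33. The summed MYOZ2 difference stayed between 0.55 and 0.90 with 1 library left out, where the exact p cannot go below 0.2. The low read numbers of buffalo circRNAs and of TNNT1 limit what can be detected.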
